A study of Mus musculus with 12 samples.

Results

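Newly formed oligodendrocytes are the short-lived cells between dividing oligodendrocyte precursors (OPC) and oligodendrocytes that wrap axons in myelin. They were picked here from single-nucleus RNA sequencing of the mouse cortex at postnatal day 21 by the unique molecular identifiers (UMIs, counted transcript molecules) of a few genes. Nuclei with at most 12000 UMIs and at most 1% mitochondrial UMIs were kept, and a nucleus was a member with at least 3 UMIs of Enpp6, at least 2 UMIs of Bcas1 and 0 UMIs of Pdgfra, Rbfox3, Slc17a7, Gad1 and Gad2. This gave 297 of 71914 kept nuclei (0.413%), 100 from WT and 197 from Het animals.

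The 12 animals, 6 wild type (WT) and 6 heterozygous (Het), came from the MYT1L S710fsX line on a C57BL/6 background, in which the Het animals carry a frameshift in 1 copy of Myt1l, a zinc finger transcription factor of neurons. Each genotype had 3 males and 3 females. All pups, WT and Het, had received AAV9 carrying calling card reagents (hyPB and H2b-tdT-SRT) around birth, and the nuclei were cleaned of myelin and debris on an iodixanol gradient, so the yield of oligodendrocyte nuclei is also that of the gradient. The labels do not tie animals to the 4 litters used, and the animals were processed together on the same plates.

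Total UMIs per animal ran from 23429385 to 59958569. The animals shared 0 barcodes, which was fixed in advance, since each sample had its own set of barcoded wells. The smallest nucleus in the deposited matrices held between 1502 and 2182 UMIs depending on the animal, which is close to the size of the members (median 2750 UMIs, range 1558 to 7173, with a median of 1356 genes). The study kept nuclei of 800 to 6000 UMIs and 300 to 3000 genes, with log genes over log UMIs of at least 0.9. By these limits 247 members (83.2%) would be kept, and which limit removed the others was not counted. Myt1l mRNA was measured in gated excitatory nuclei as a check of the labels: WT animals had 995 ± 76.9 CPM (UMIs per 1000000, SD, n = 6) and Het ones 1058 ± 41.6 (two-sided exact permutation over animals, p = 0.102), so the transcript level did not separate the genotypes. A frameshift need not lower the mRNA, and the count is not specific to the intact allele.

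As background, an OPC that leaves the cell cycle loses the receptor gene Pdgfra, passes a committed stage marked by Gpr17 and Bmp4, and then becomes a premyelinating cell that extends many processes and tests axons. Enpp6, a choline-specific glycerophosphodiesterase, and Bcas1, a protein of early myelinating processes, are markers of this stage. Many of these cells die, and those that stay turn on the genes of the myelin sheath.

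The label was set beside genes the gate did not use. Comparison nuclei were gated in the same matrices: 1144 myelinating oligodendrocytes (at least 3 UMIs of Mobp and 1 of Mog) and 236 OPC (at least 2 UMIs of Pdgfra), both without Enpp6 and without the neuronal genes. A narrower OPC gate that also needed Cspg4 held 76 nuclei, and the wider one was set after the data were seen. Levels are CPM of the UMIs summed over the nuclei of an animal, averaged over the 10 animals with at least 10 members. CPM is not scaled by gene length, so a gene is compared between cell types and not with other genes. Since the gates chose the nuclei by measured genes, these contrasts are descriptions without a test. Of 18 further markers of newly formed oligodendrocytes, 15 reached 50 CPM in members and 12 were above both comparison types in all 10 animals. The background for this was 229 of 3039 genes at that level, detected in at least 10% of members, that stood above both types in all 10 animals. The marker list was chosen with earlier results of these data known, and the comparison nuclei were gated to lack Enpp6. These counts are therefore no independent check of the label.

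The genes that set the members apart from both neighbours were led by Frmd4a, a FERM-domain scaffold protein of cell polarity. Its level was 21053 ± 2155 CPM (SD, n = 10 animals) in members, 317 ± 161 in myelinating oligodendrocytes and 349 ± 376 in OPC. The lowest animal had 16662 CPM in members and the highest 24142, so every animal's members exceeded every animal's OPC and myelinating nuclei. Frmd4a UMIs were found in 88.9% of members, 22.6% of myelinating oligodendrocytes and 25.8% of OPC. The gene is not particular to the lineage, since excitatory nuclei held 1534 CPM. Frmd4a lies on chr2:4017717-4614043 (mm10, plus strand). Gm36988, annotated as a sense-intronic transcript within it, and Gm13187, on the opposite strand within it, were also among the 12 leading genes, and reads of these overlapping genes may not be fully separable.

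Tcf7l2, a transcription factor of the Wnt pathway needed for oligodendrocyte differentiation, stood at 2764 ± 486 CPM in members against 109 ± 37.4 in myelinating oligodendrocytes and 151 ± 69.7 in OPC. Tcf7l1, its relative, showed the same order at a level of 457 ± 70.6 CPM against 55.6 ± 16.1 and 63.0 ± 31.4. The other leading protein-coding genes were of mixed function. Pik3r3, a regulatory subunit of PI3-kinase, was at 5530 ± 624 CPM in members, 249 ± 49.3 in myelinating oligodendrocytes and 65.0 ± 28.5 in OPC. Epb41l2, a membrane skeleton adaptor, stood at 2573 CPM, the translation inhibitor gene Pdcd4 at 1285 CPM and the microtubule-binding protein gene Map1b at 1422 CPM. Tmem108 was at 3534 CPM, Mpzl1, a surface protein related to myelin protein zero, at 1728 CPM, Nhsl2 at 551 CPM and the transcriptional coactivator gene Eya2 at 152 CPM. These 12 genes had the largest ratio to the higher of the 2 comparison types, with OPC by the narrower gate in the 3 animals that had enough of them, and 10 of the 12 also led with the wider gate.

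The start regions of Enpp6, the gate gene, and of Tcf7l2, the leading transcription factor, are shown because the members expressed SOX and TCF genes, whose proteins bind short A/T-rich letters. The 250 bases before each start are from RefSeq (GRCm38.p6), both on the plus strand, at chr8:46986637-46986886 for Enpp6 and chr19:55741560-55741809 for the first Tcf7l2 start. Capitals mark AACAATG, read on either strand.
Enpp6: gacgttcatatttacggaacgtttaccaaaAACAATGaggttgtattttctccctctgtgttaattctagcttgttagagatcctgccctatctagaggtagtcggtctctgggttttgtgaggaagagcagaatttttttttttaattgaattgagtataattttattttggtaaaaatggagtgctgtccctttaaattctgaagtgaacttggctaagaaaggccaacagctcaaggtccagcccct
Tcf7l2: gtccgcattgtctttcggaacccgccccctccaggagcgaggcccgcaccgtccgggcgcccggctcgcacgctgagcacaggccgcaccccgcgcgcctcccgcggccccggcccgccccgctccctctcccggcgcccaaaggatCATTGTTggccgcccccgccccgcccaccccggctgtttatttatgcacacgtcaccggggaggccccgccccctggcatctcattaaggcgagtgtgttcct
Over 27025 promoters of the same length, 3.36% held AACAATG, 4.99% held AACAAAG and 3.23% held ATCAAAG on either strand. Of the 8 leading genes with an entry, 1 (Tcf7l2) held AACAATG in its first promoter window, and 0 held either of the others there, while the second Tcf7l2 window held AACAAAG. A match is a description of letters and says nothing about binding.

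**Figure D1:**
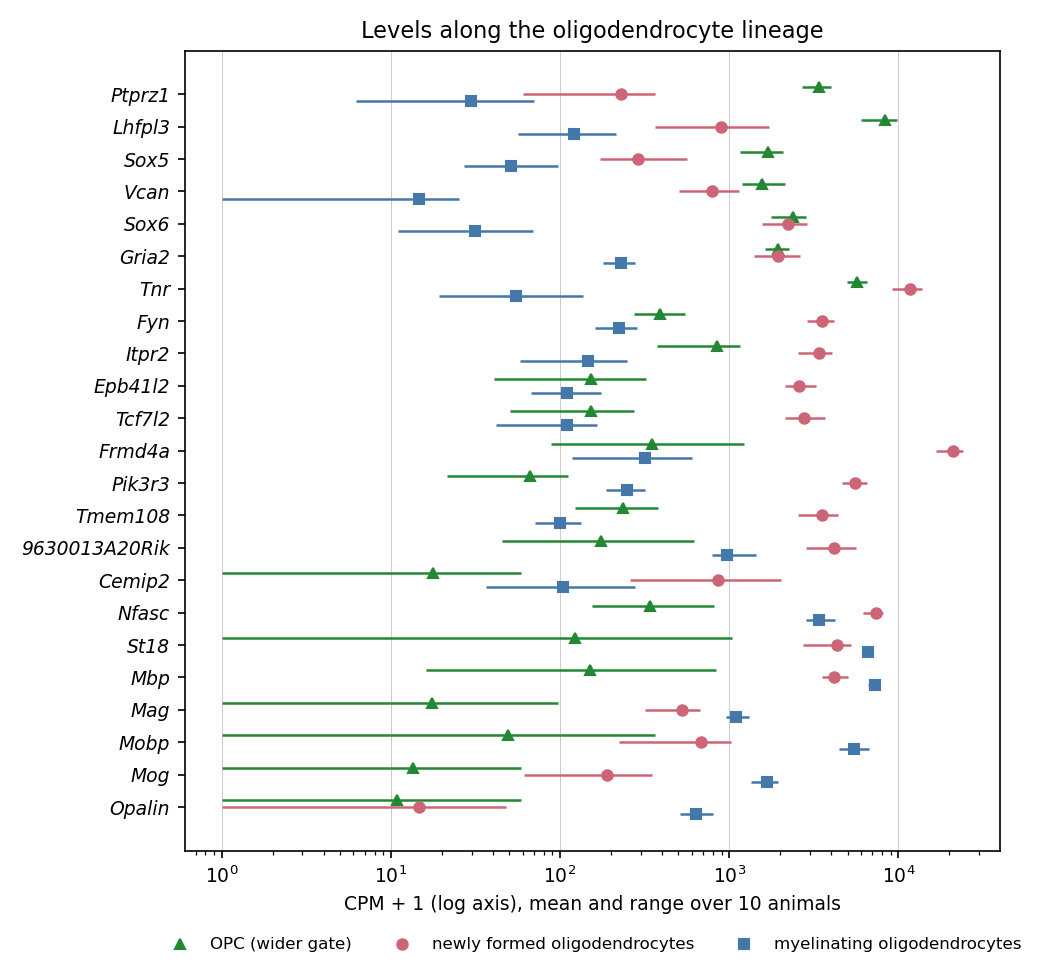
Level of 23 genes in OPC (wider gate, triangles), newly formed oligodendrocytes (circles) and myelinating oligodendrocytes (squares), as CPM + 1 on a log axis; symbols are means and lines the range over 10 animals. Genes in the middle of the plot, such as Frmd4a, Tcf7l2 and Pik3r3, peak in the newly formed oligodendrocytes, OPC genes such as Ptprz1 and Lhfpl3 fall along the order of the 3 types, and Mobp and Mog are highest in the myelinating nuclei, which were gated on them.

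By level alone, the 10 highest genes in members also included Malat1, a nuclear non-coding RNA, at 18093 CPM, Lsamp, an IgLON adhesion gene, at 16728 CPM, Qk, an RNA-binding regulator of myelin transcripts, at 10596 CPM, Nkain2 at 10140 CPM and Pcdh9, a protocadherin gene, at 7683 CPM. Qk stood at 10497 CPM in myelinating oligodendrocytes and 2686 in OPC, and Pcdh9 was higher in myelinating oligodendrocytes than in members.

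Surface and matrix genes of the members stood above OPC in some cases and below OPC in others. Tnr, which encodes the matrix glycoprotein tenascin-R, was at 11687 ± 1551 CPM in members, 5717 ± 603 in OPC and 54.2 ± 36.8 in myelinating oligodendrocytes. Opcml, an IgLON adhesion gene, was at 14687 ± 1587 CPM in members against 7781 in OPC and 561 in myelinating oligodendrocytes. Of the 28 axon contact and adhesion genes at 50 CPM or more, 10 were above both types in all 10 animals, 10 had a mean between them and 4 had a mean below both. Cadm2, a synaptic cell adhesion molecule, stood at 12668 CPM in members against 4565 in OPC and 1325 in myelinating oligodendrocytes. Nfasc, whose glial form sits at the paranodal junction, stood at 7320 ± 669 CPM against 339 ± 194 in OPC and 3405 ± 370 in myelinating oligodendrocytes. Not all adhesion genes peaked here: Nlgn1, a neuroligin, was at 2685 CPM in members and 7360 CPM in OPC.

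Some kinase and cytoskeletal genes were highest in the members. Fyn, the Src-family kinase of process outgrowth, was at 3524 ± 354 CPM, against 387 ± 83.1 in OPC and 221 ± 38.7 in myelinating oligodendrocytes. Of 29 cytoskeleton and branching genes at 50 CPM or more, 7 exceeded both types in all 10 animals and 17 had a mean between them. Sirt2, a tubulin deacetylase, stood at 1134 CPM against 162 in OPC and 518 in myelinating oligodendrocytes, and Arhgap35, a GTPase-activating protein, at 1080 CPM against 341 and 131. Map2, a microtubule-associated protein gene, was at 1203 CPM against 933 and 256. Dock10, a guanine nucleotide exchange factor, ran the other way with 970 CPM in members and 4907 in myelinating oligodendrocytes.

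Itpr2, the intracellular calcium release channel, was at 3401 ± 474.5 CPM in members against 841 ± 218 in OPC and 146 ± 64.4 in myelinating oligodendrocytes. Of 22 ion channel and transporter genes at 50 CPM or more, 2 exceeded both types in all 10 animals, near the background of 229 of 3039 genes. Grik2, a kainate receptor gene, stood at 4258 CPM in members against 1516 in OPC and 2882 in myelinating oligodendrocytes. Of 9 choline and phospholipid genes at that level, 2 did so, among them Slc44a1, a choline transporter gene, at 1812 ± 152 CPM against 242 ± 85.5 in OPC and 878 ± 59.6 in myelinating oligodendrocytes. The glutamate receptor gene Gria2 was at 1932 ± 367 CPM in members and 1940 ± 186 in OPC, and their ranges overlapped.

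Among 18 receptor and signalling genes at 50 CPM or more, 2 exceeded both types in all 10 animals and 6 had a mean below both. The background for the former was 229 of 3039 genes. Erbb4, a neuregulin receptor gene, was at 4767 CPM in members, 5575 in OPC and 7102 in myelinating oligodendrocytes, while Rictor, a subunit of the mTORC2 kinase complex, was at 1462 CPM against 227 and 529. Of 11 Wnt and BMP pathway genes, 3 exceeded both types in all 10 animals.

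9630013A20Rik, a long non-coding RNA annotated antisense to Pcdh17, stood at 4155 ± 788 CPM, against 174 ± 211 in OPC and 969 ± 235 in myelinating oligodendrocytes. The level of Pcdh17 itself in members was 839 CPM. Whether the counting used strand is not given in the sources used here, so reads of the pair may not be fully separable.

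OPC markers lay between the levels of the neighbouring types, and most committed-stage markers above both. All 5 OPC markers at 50 CPM or more were below OPC in all 10 animals: Lhfpl3 was at 890 ± 408 CPM in members and 8310 ± 1104 in OPC, and Ptprz1, a receptor phosphatase, at 229 ± 97.7 CPM against 3378 ± 456. Sox6, a factor that holds back differentiation, had not fallen to the same extent, with 2218 ± 396 CPM in members, 2386 ± 345 in OPC and 30.3 ± 19.4 in myelinating oligodendrocytes. Of 10 committed precursor markers at 50 CPM or more, 8 had a mean above both types, 2 a mean between them, and 3 were above both in all 10 animals. Bmp4, a committed-stage ligand, was above both types in all 10 animals (116 ± 62.6 CPM, against 10.8 ± 16.1 in OPC and 0.346 ± 1.09 in myelinating oligodendrocytes). Gpr17, the receptor of that stage, was at 142 ± 71.3 CPM in members and 119 ± 67.6 in OPC, which overlapped.

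Myelin genes lay between the 2 neighbours. Of 13 myelin protein genes at 50 CPM or more, 10 were above OPC and 10 below myelinating oligodendrocytes in all 10 animals. Mbp, the cytoplasmic compaction protein, was at 4140 ± 487 CPM in members, 150 ± 255 in OPC and 7282 ± 306 in myelinating oligodendrocytes. Mag, an adhesion molecule of the inner sheath, was at 523 ± 110 CPM against 1091 ± 104 in myelinating oligodendrocytes. Opalin, a late marker, was near 0 in members (13.6 CPM on average over the 10 animals, 639 in myelinating oligodendrocytes). Of 18 lipid synthesis genes at 50 CPM or more, 0 exceeded both types in all 10 animals and 13 had a mean between them, such as Ugt8a, which makes galactosylceramide, at 891 CPM between 208 and 1482.

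Of 17 lineage transcription factors at 50 CPM or more, 2 exceeded both types in all 10 animals, against the background of 229 of 3039 genes. Tcf7l2 was described above. St18, a MYT-family zinc finger gene, was at 4324 ± 778 CPM in members, 122 ± 325 in OPC and 6644 ± 332 in myelinating oligodendrocytes. Its relative Myt1 was at 48.1 CPM in members and 437 CPM in OPC. Myt1l itself was at 38.2 CPM in members and at 1030 CPM in excitatory nuclei, with at most 6 UMIs in the members of any animal, so the gene under study was near the detection limit in these cells. Zfp536, which is high in mature cells, was at 728 CPM in members against 3224 in myelinating oligodendrocytes.

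Some genes were lower in members than in both neighbours. Of the 3039 genes, 45 were below both types in all 10 animals. These genes needed 50 CPM and detection in 10% of members. Genes that fell under this floor in members were not counted, so the count does not tell how many genes were lowered. The 3 named here were chosen after their values were seen. Fam155a was at 208 ± 134 CPM in members, 2424 in OPC and 2509 in myelinating oligodendrocytes, Xkr4 at 161 CPM against 895 and 1117, and Ptn, the secreted growth factor pleiotrophin, at 132 CPM against 485 and 1172.

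Markers of other cells were low in the members. The summed level of 14 neuronal markers, 4 of them at 0 by the gate, was 222 CPM, against 10448 CPM in excitatory nuclei, that of 10 microglial markers 145 CPM against 6221 CPM in gated microglia, and that of 12 astrocyte markers 416 CPM, of which Gpc5, a gene also high in OPC, gave 277. Mki67 and Top2a, genes of dividing cells, were at 4.71 and 2.46 CPM. The vascular and fibroblast list summed to 16.6 CPM, with 6 of its 12 genes at 0. The 297 members included 6 nuclei among the 5% with the highest Scrublet doublet score in their animal.

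Because the gate used raw UMIs, its edge was examined. The 96 members just inside, with 3 to under 4 Enpp6 UMIs, had a median of 2624 UMIs, a Tcf7l2 level of 2313 CPM and Mobp UMIs in 35.4% of nuclei. The 106 nuclei just outside, with 2 to under 3, had a median of 2289 UMIs, 1629 CPM and 44.3%. Enpp6 and Bcas1 at the thresholds without the exclusions were met by 354 nuclei, of which the 57 that were not members carried UMIs of an excluded gene.

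The members were not uniform. Shares of nuclei with a UMI were also counted after thinning each nucleus to 1500 UMIs. Sox6 was found in 68.4% of thinned members (73.7% unthinned), against 92.8% of OPC, 2.54% of myelinating oligodendrocytes, 11.2% of microglia and 1.32% of excitatory nuclei. Gpr17 was found in 19.5% (30.6% unthinned), against 14.8% of OPC (22.5% unthinned) and 2.02% of myelinating oligodendrocytes. Bmp4 was found in 14.5% (22.6% unthinned), against 1.27% of OPC and 0% of myelinating oligodendrocytes. Both genes were found in 0% of thinned microglia and excitatory nuclei. Cemip2, a cell-surface hyaluronidase gene also known as Tmem2, was found in 23.6% (26.6% unthinned) against 6.13% of myelinating oligodendrocytes, 2.54% of OPC, 6.25% of microglia and 6.17% of excitatory nuclei. Mobp was found in 22.2% of thinned members (27.3% unthinned), 1.27% of thinned OPC and 0.441% of excitatory nuclei, but also in 25.0% of thinned microglia. After thinning, the gated microglia also held Mbp in 35.0% and Myt1l in 23.8% of nuclei. The Mobp share in members was not above that of microglia and is not read as expression. Mobp below only sorts nuclei by the presence of its UMIs. The median depths before thinning were 2750 UMIs in members, 2809 in microglia and 7297 in excitatory nuclei.

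Across the 297 members, with levels centred within each animal, sets of genes rose and fell together. The coefficients that follow are Pearson's r over nuclei, which share libraries and normalization by depth, and are given without p. Tnr went with Opcml (r = 0.86) and Fyn (r = 0.83). Frmd4a went with Nfasc (r = 0.81), Pik3r3 (r = 0.75) and Tcf7l2 (r = 0.67). Cemip2 went with Carmil1, an actin capping regulator (r = 0.84), Rras2, a small GTPase gene (r = 0.78), and Eml1, a microtubule-binding protein gene (r = 0.74), and against Sox6 (r = -0.70). Mobp went with Rnf220 (r = 0.82) and against Tnr (r = -0.78). For the genes in the plot of correlations, r with log2 UMIs ranged from -0.28 to 0.31.

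**Figure D2:**
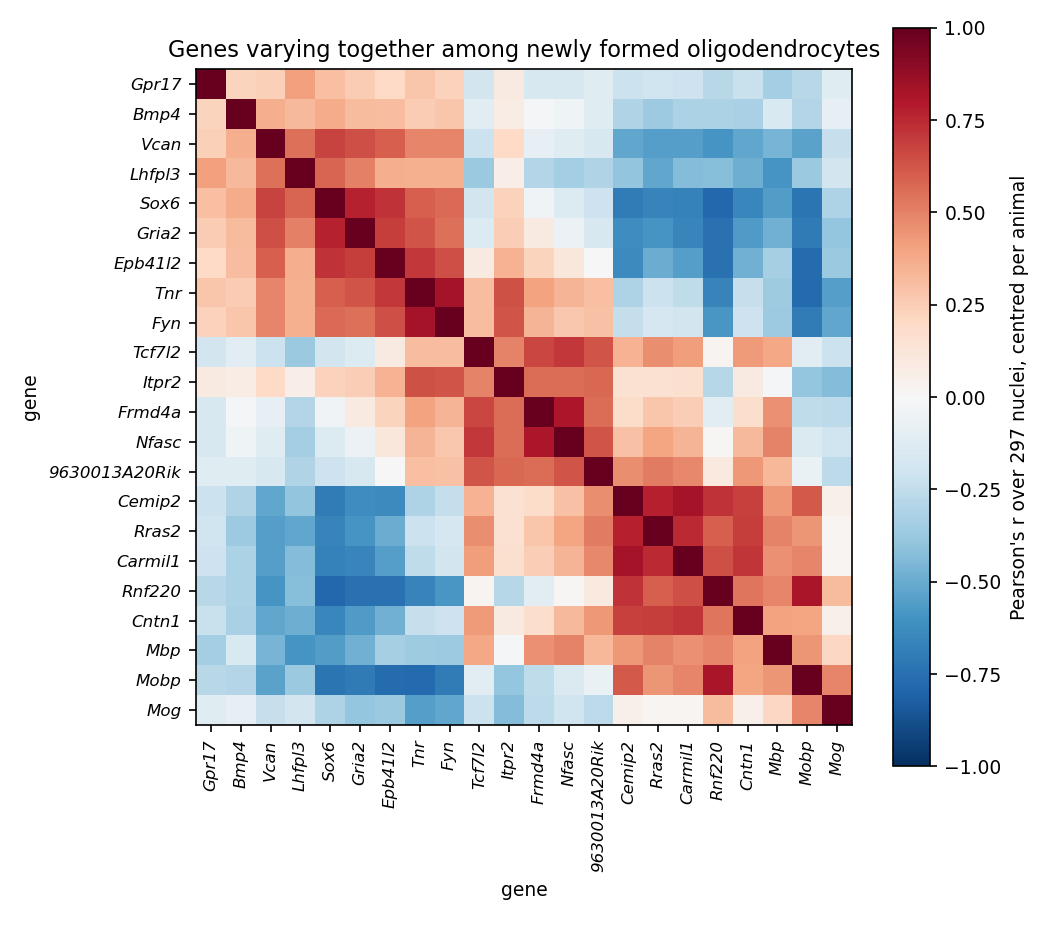
Pearson's r between 22 genes over 297 newly formed oligodendrocytes, with each gene centred within each animal; red is positive, blue negative and both axes list the same genes. The upper left genes (Gpr17 to Fyn) and the lower right genes (Cemip2 to Mog) are negatively related to each other. Mog is close to unrelated to Cemip2, Rras2, Carmil1 and Cntn1 (r of 0.02 to 0.05). Tcf7l2, Itpr2, Frmd4a, Nfasc and 9630013A20Rik form a middle block, and Tnr and Fyn also go with Itpr2 (r = 0.64 and 0.63).

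Members with and without Cemip2 differed in many other genes. The 79 nuclei with a Cemip2 UMI (26.6%; 18 WT and 61 Het) had Sox6 UMIs in 25.3%, Rras2 in 94.9% and Mobp in 75.9%, while the 218 without had Sox6 in 91.3%, Rras2 in 17.9% and Mobp in 9.63%. Frmd4a was found in all 79 with Cemip2 and in 84.9% of those without. Their median depths were 3168 and 2598 UMIs. UMIs of Gpr17, Bmp4 or Neu4, the committed-stage genes, occurred in 153 members (51.5%), of which 18 also carried Cemip2. Gpr17 and Neu4 were also found in 22.5% and 19.1% of unthinned OPC. In 45 members Frmd4a had at most 2 UMIs, of which 17 carried Mobp and 28 did not. Mog was found in 88.2% of the former, and Sox6 in 100% and the OPC gene Lhfpl3 in 96.4% of the latter.

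**Figure D3:**
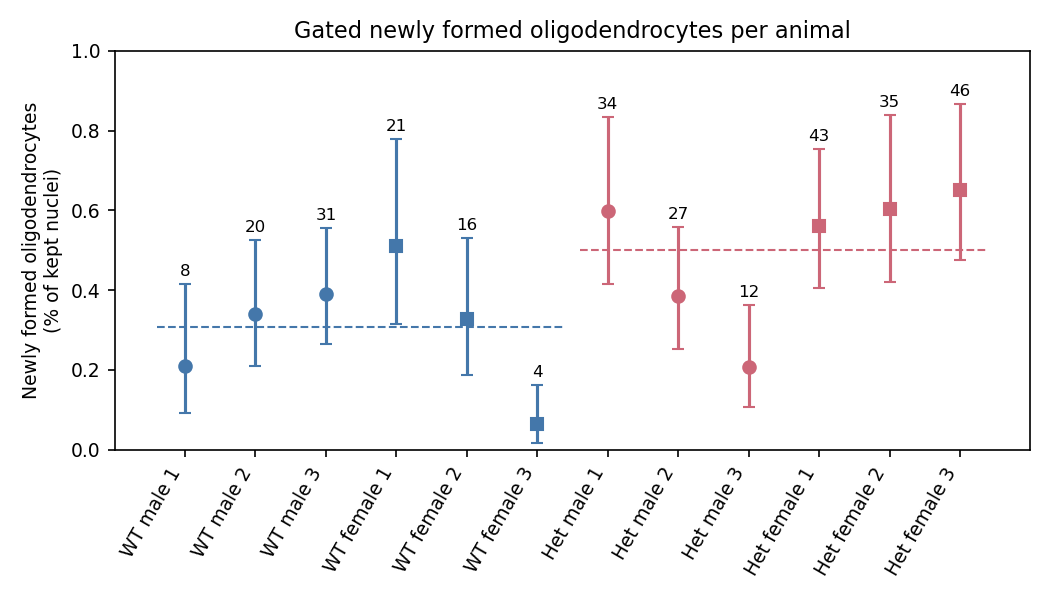
Newly formed oligodendrocytes as a percentage of kept nuclei in each animal, males as circles and females as squares; bars are exact 95% binomial intervals, numbers above are member counts and dashed lines are genotype means. The 4 highest animals are Het, the lowest is a WT female, and both genotypes have animals between 0.2 and 0.6%.

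The first comparison asked whether the share of newly formed oligodendrocytes differed between Het and WT. It was 0.307 ± 0.154% of kept nuclei (SD, n = 6) in WT and 0.501 ± 0.170% (n = 6) in Het animals, a ratio of 1.63. In WT the animals ran from 0.0635% (4 members, WT female 3) with a median of 0.334% to 0.510% (WT female 1), and in Het from 0.208% (12 members, Het male 3) with a median of 0.579% to 0.650% (Het female 3). The groups overlapped, although 5 of 6 Het animals exceeded the median of WT. The difference of 0.194 percentage points (SE 0.0937) was not significant in an exact two-sided permutation test over 924 relabellings (p = 0.0714, Benjamini-Hochberg adjusted over 6 tests 0.429). Leaving out 1 animal gave 0.145 (without WT female 3, exact p = 0.136) to 0.252 (without Het male 3, exact p = 0.0152). Without WT female 1 it was 0.234 (exact p = 0.0368). Counting error alone gave intervals of 0.0909 to 0.414% for WT male 1 with 8 members and 0.476 to 0.866% for Het female 3 with 46. Fewer cells of a type and less RNA per cell, which moves a nucleus across a UMI gate, cannot be told apart in these shares. Among nuclei of at least 2200 UMIs, above the smallest nucleus of every animal, the difference was 0.167 percentage points (exact p = 0.121). With nuclei under 2000 UMIs left out and the others thinned to 2000 UMIs before the gate, it was 0.0802 (exact p = 0.288). With Enpp6 at 4 UMIs or more it was 0.120 (exact p = 0.117).

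Neighbouring stages were counted beside it. Members were 18.5 ± 8.43% of all gated lineage nuclei, with OPC by the narrower gate, in WT and 20.5 ± 3.62% in Het animals (exact p = 0.619). With the wider OPC gate the difference was 1.70 percentage points (exact p = 0.641). Myelinating oligodendrocytes were 1.38 ± 0.762% of kept nuclei in WT and 1.79 ± 0.513% in Het animals (exact p = 0.292), and OPC by the wider gate 0.267 ± 0.177% and 0.382 ± 0.184% (exact p = 0.288). Members had a median of 2556 ± 436 UMIs in WT and 2670 ± 353 in Het animals (exact p = 0.641), a difference that turned to -24.8 UMIs without WT female 3. The adjusted values of these 4 were between 0.438 and 0.641. The lineage share reversed on leaving out WT female 3 (-0.157 percentage points), the animal with 4 members.

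The sexes were compared within genotype. Het minus WT was 0.0825 percentage points in males and 0.305 in females, and the difference between the sexes did not pass the test (exact permutation of sex within genotype, 400 relabellings, p = 0.255). Taken as males minus females it was -0.222, against -0.104 (exact p = 0.53) without WT female 3, -0.128 (exact p = 0.44) without Het male 3 and -0.0923 (exact p = 0.56) after thinning to 2000 UMIs. It was larger without WT female 1 (-0.327, exact p = 0.08) and under the limits of the study on nuclei (-0.366, exact p = 0.335). Het females stood between 0.561% and 0.650%, and Het males between 0.208% and 0.598%, with WT males at 0.210 to 0.391% and WT females at 0.0635 to 0.510%.

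The second comparison asked which genes differed between Het and WT members. The WT animals male 1 with 8 members and female 3 with 4, had fewer than 10 members and were left out, so 4 WT and 6 Het animals entered, with 33108 to 139111 UMIs in the summed members of an animal. By edgeR's quasi-likelihood test 0 of 1505 genes (0.0%) passed an adjusted p of 0.05, and 91 (6.05%) had an unadjusted p under 0.05. DESeq2 called 1 gene (0.0664%), which was Cemip2. Without WT male 2, edgeR called 1 gene, Slc8a1, a sodium-calcium exchanger gene (log2 fold change -1.66, adjusted p = 0.00966). With all 10 animals Slc8a1 was at -1.30 (adjusted p = 0.55), and leaving out each animal gave -1.66 to -0.61. WT male 2 had 59.2 CPM of Slc8a1, below every Het animal (86.3 to 191 CPM), and the other WT animals used had 234 to 584 CPM, while those left out had 153 (male 1) and 134 CPM (female 3). In simulations of this comparison with 1421 genes, edgeR recovered 74.7% of genes changed by 1 on the log2 scale and 100% of those changed by 2, with 6 false calls. There 99 and 93 genes were changed, which eases the adjusted threshold, so these rates do not give the power for a few changed genes. The simulated counts also took a variance shared by genes of like level, which leaves out variation particular to single genes.

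**Figure D4:**
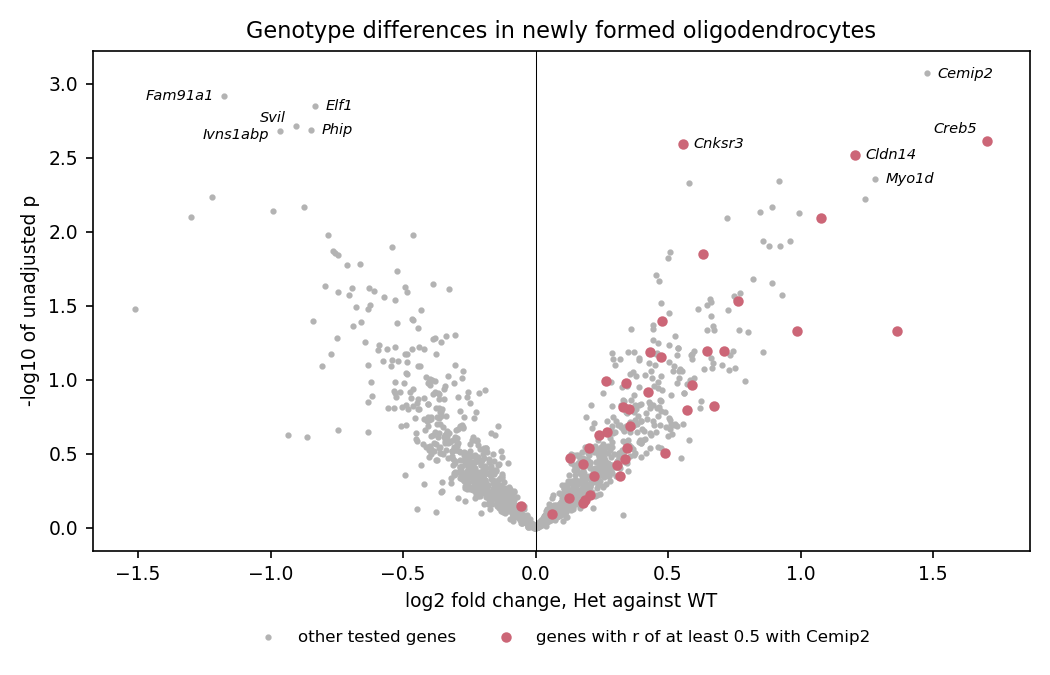
Log2 fold change of Het against WT (x axis) and -log10 of the unadjusted p (y axis) for 1505 genes in newly formed oligodendrocytes by edgeR; large points are genes with r of at least 0.5 with Cemip2 across the nuclei. None passes the adjusted threshold, Cemip2 has the smallest p, and the large points lie mostly right of 0.

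Cemip2 had the smallest p. Its level in the 4 WT animals was 429, 449, 515 and 257 CPM (male 2, male 3, female 1 and female 2), and in Het animals it was 2024, 1082 and 604 CPM in the males and 893, 733 and 1538 CPM in the females. Every Het animal was above every WT animal used, which held for 11 genes, or 0.731% of those tested. In the animals left out it was 357 CPM (WT male 1, 7 UMIs) and 0 (WT female 3, with 4 members). The log2 fold change was 1.48 (SE 0.34, edgeR unadjusted p = 0.000852, adjusted p = 0.478), and DESeq2 gave 1.46 with an adjusted p of 0.00448. Of 23 alternatives Cemip2 passed in 3 and not in 20. Among the 20 were Enpp6 at 4 UMIs or more (log2 fold change 1.45, adjusted p = 0.998) and the limits of the study on nuclei (1.56, adjusted p = 0.59). A replicate block was another (0.96, edgeR adjusted p = 0.54). It compares same-numbered animals, so Het male 1 and Het female 3, whose WT partners were left out, do not inform it. These had the highest Cemip2 levels. Beside DESeq2, Cemip2 passed in edgeR with no filter on low counts (1.55, adjusted p = 2.6e-08). It also passed in nuclei of at least 2200 UMIs, a limit added after the data were seen. There it was at 1.82 (edgeR adjusted p = 0.00749), the single call or 0.0763% of genes. That fit, like the one under the limits of the study, held 9 animals, 4 of them WT, so the animals changed too.

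The share of members with Cemip2 was 18.2 ± 5.28% in WT (12.5 to 25.0%, n = 4) and 30.8 ± 8.52% in Het animals (17.1 to 41.2%, n = 6), which overlapped. Cemip2 UMIs per positive nucleus were 5.50 to 8.00 in WT and 5.00 to 16.1 in Het animals. Members with Mobp were 20.8 ± 7.34% in WT and 28.8 ± 10.4% in Het animals, and members with Gpr17, Bmp4 or Neu4 48.6 ± 5.43% and 54.7 ± 2.53%. These shares were chosen after the values were seen and were not tested.

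**Figure D5:**
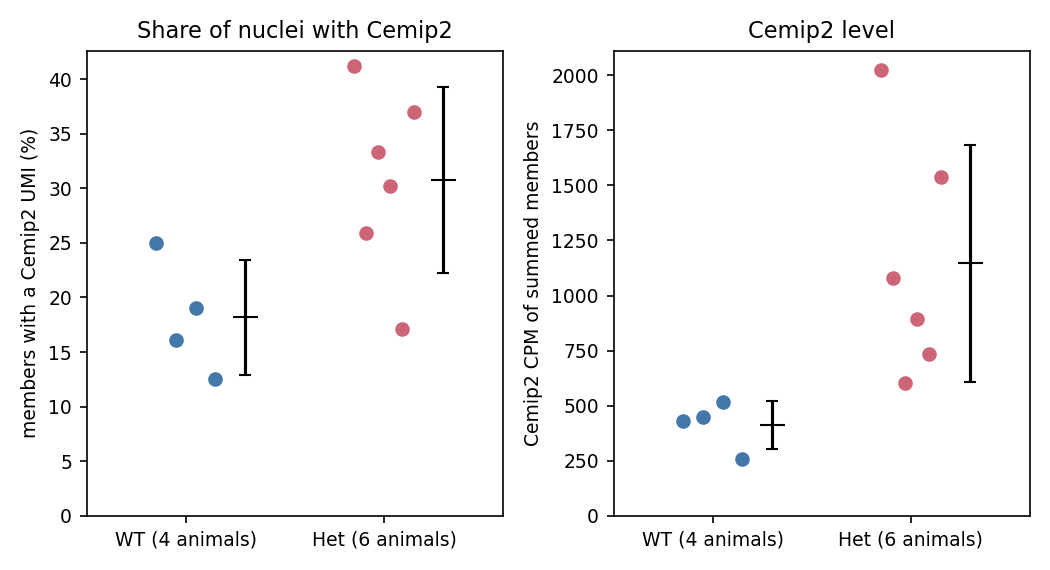
Left, members with a Cemip2 UMI as a percentage of members; right, Cemip2 CPM of the summed members; each point is an animal with at least 10 members and bars are mean ± SD. Cemip2 CPM in all 6 Het animals, from 604, is above that of all 4 WT animals, up to 515, while the shares overlap between 17.1 and 25.0%.

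In the 41 genes with r of at least 0.5 to Cemip2 across members, 39 were tested and 38 of these had a higher estimate in Het, with a median log2 fold change of 0.35 and 9 unadjusted p-values under 0.05. Over all 1505 genes, 50.9% were higher in Het, with a median of 0.01 and 91 (6.05%) unadjusted p-values under 0.05. These genes vary with Cemip2 in the same nuclei and were chosen after the values were seen, so they are not independent of it. In myelinating oligodendrocytes the Cemip2 log2 fold change was -0.52 (SE 0.56), and the difference of the genotype effect between the cell types was 1.99 (edgeR, unadjusted p = 0.00101, adjusted p = 0.359). In edgeR this difference passed with Enpp6 at 4 UMIs or more (2.04, adjusted p = 0.0357) and with no filter on low counts (2.11, adjusted p = 1.6e-07). It did not pass in nuclei of at least 2200 UMIs or by DESeq2, each with 0 genes called.

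The next genes by p that were higher in Het were Creb5, a transcription factor of the CREB family (log2 fold change 1.70, SE 0.48), Cnksr3, a signalling scaffold (0.56, SE 0.17), the claudin gene Cldn14 (1.21, SE 0.36) and the myosin gene Myo1d (1.28, SE 0.41). Creb5 had 86.1 ± 52.3 CPM in the 4 WT animals and 279 ± 145 in the 6 Het ones, with overlap between 131 and 163 CPM, and the WT animals left out had 0 (male 1) and 267 CPM (female 3). Adjusted p by edgeR as described was at least 0.478 for all of these. With no filter on low counts edgeR called Creb5 (adjusted p = 0.00204) and Cldn14 (adjusted p = 0.0443), and with sex as a covariate the adjusted p of both was 0.0653. The log2 fold changes moved in other settings of the gate. With Enpp6 at 2 UMIs or more Creb5 was at 0.71, Myo1d at 0.31 and Cnksr3 at 0.95. That fit held all 12 animals, with WT male 1 and WT female 3 among them, so gate and animals changed together. With Enpp6 at 4 UMIs or more, in 10 animals, Cldn14 was at 0.63.

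Lower in Het by p were Fam91a1, a Golgi trafficking gene (log2 fold change -1.18, SE 0.32), the ETS factor gene Elf1 (-0.83, SE 0.23), Svil, which encodes the actin-binding protein supervillin (-0.90, SE 0.26), Phip (-0.85, SE 0.25) and Ivns1abp (-0.97, SE 0.28). For Elf1 the 4 WT animals used ran from 266 to 350 CPM and the Het animals from 120 to 211, without overlap, although WT male 1, left out with 8 members, had 204 CPM. With Enpp6 at 2 UMIs or more, where all 12 animals entered, the Elf1 log2 fold change was -0.51. Such a lack of overlap held in this direction for 8 genes (0.532%). Fam91a1 had 140 to 213 CPM in the 4 WT animals used and 43.8 to 120 CPM in Het animals, with 153 and 267 CPM in the WT animals left out. Svil did not overlap among the animals used (397 to 666 CPM in WT and 143 to 392 in Het), but WT female 3, left out with 4 members, had 267 CPM. None passed an adjusted p of 0.05, the smallest of these 5 being 0.478.

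Among the myelin genes, Mag had a log2 fold change of 0.50 (SE 0.19, edgeR adjusted p = 0.644), with 316 to 490 CPM in the 4 WT animals used and 503 to 674 CPM in Het animals, while the WT animals left out had 255 (male 1) and 669 CPM (female 3). Of the 10 myelin protein genes tested, 8 had a higher estimate in Het, with a median log2 fold change of 0.12, and 0 were called. Over all 1505 genes 50.9% had a higher estimate, with a median of 0.01. The lists share genes, such as Mag in the myelin and adhesion lists, and the shift of a list was not tested. The median was 0.04 over 13 lineage transcription factors (11 higher), 0.10 over 24 axon contact and adhesion genes (17 higher) and -0.03 over 19 cytoskeleton genes (7 higher) and 0 of these were called. Of 10 lipid synthesis genes tested, 5 had a higher estimate in Het and 0 were called. Frmd4a had 22208 ± 1845 CPM among WT and 20283 ± 2130 among Het animals, Tcf7l2 at 2715 ± 396 and 2797 ± 573, St18 at 4302 ± 733 and 4338 ± 876, and Enpp6, which the gate used, at 1658 ± 231 and 1667 ± 179.

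With no filter on low counts 7 of 17029 genes (0.0411%) were called, and 4 of these were lower in Het, among them Inpp5d, Ly86, a marker of microglia, and Plxdc2. UMIs of the microglial list came from few nuclei. Of 56.0 UMIs of the microglial list in members of WT male 3, 49.0 were in 1 nucleus, and of 27.8 in WT male 2, 26.0 were in 1 nucleus, while the other WT animals held between 0 and 5.0 and Het animals between 0 and 14.5. The part of these nuclei in the 4 calls was not tested.

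The third comparison asked whether the genotype difference in members was unlike that in the neighbouring stages. Against myelinating oligodendrocytes, 0 of 4339 genes (0.0%) passed in edgeR and 220 (5.07%) had an unadjusted p under 0.05. The smallest adjusted p was 0.0882, shared by Plcb1, Inpp5d and Grip1. Inpp5d, which microglia express, had an interaction of -4.06 on 22 UMIs in members, and Grip1 one of 2.81. Plcb1, a phospholipase C gene, was at 1176 CPM in WT and 1640 CPM in Het members against 260 and 165 CPM in myelinating oligodendrocytes (interaction 1.15 on the log2 scale, SE 0.26). Leaving out 1 animal gave 0 to 6 calls, with 6 without WT male 2, 6 without Het female 1, and 1 each (Cemip2) without WT male 3 and without Het male 2. Against OPC by the narrower gate only 3 animals, 1 WT and 2 Het, had at least 10 nuclei of both types, and 0 of 1438 genes (0.0%) passed, with 61 (4.24%) at an unadjusted p under 0.05. With the wider gate 0 of 2309 genes passed and 127 had an unadjusted p under 0.05.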

How the data were processed

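Nuclei of flash-frozen cortex were profiled on a combinatorial-barcoding platform (Scale Biosciences). The authors aligned reads to mm10 with ScaleRna 1.4, called cells with the CellFinder of ScaleRna 1.5, and deposited matrices of expected counts per gene and barcode (unnormalized UMIs, with 92.6% of stored values whole). The study's own methods named Seurat 4.3.0 and DESeq2 1.38.3. No column of other samples was used.

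Nuclei were kept and gated as the report states. The members and the gene lists were chosen with earlier results of these data known. Values summed per animal were rounded and tested with edgeR 4.0.16 in R 4.3.3 (TMM, filterByExpr, robust quasi-likelihood test, Benjamini-Hochberg adjustment over all genes tested) in animals with at least 10 members, and with DESeq2 1.42.0 as an alternative. Differences of the genotype effect between cell types were interaction terms with the animal as a block. Shares were compared by exact permutation over animals with scipy 1.17.1. Exact (Clopper-Pearson) 95% intervals cover counting error only. Genes were named by rule: the gate genes, the 12 leading genes, the 10 with the highest level, the 5 with the smallest p in each direction between Het and WT, and examples from each list in order of level. Examples lower in that order, and those within the correlations and states, were chosen after their values were seen. Scrublet ran in scanpy 1.11.5, and nuclei with high scores were kept except in an alternative. The edgeR step was tested on simulated data. Whether same-numbered animals were paired was checked: the correlation of their deviations was between -0.0417 and 0.124, so no block was used. Alternatives changed the gate, the filters, the scaling, the tool and the animals. Each animal is 1 mouse, loaded into its own set of barcoded wells and then pooled with the others, and litters could not be modelled. Values of a few genes are not reported here.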

Additional observations from a re-analysis of the deposited data

Results flagged for a closer look

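Svil in WT male 2 stood apart from the other WT animals tested, at 666 CPM against 397 CPM in the lowest of the 4 (by Dixon's gap ratio at its 95% level). It was the only such value in 30 groups of animals examined, where that level by construction marks about 1 in 20 by chance. The Svil log2 fold change was between -1.11 and -0.70 on leaving out each animal in turn.

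The matrices also hold a transcript of the injected vector, which the comparisons did not use. It was found in 4.04% of newly formed oligodendrocytes (12 of 297 nuclei, exact 95% interval 2.10 to 6.95%, median 2750 UMIs). The share was 4.11% in myelinating oligodendrocytes, 3.81% in OPC, 12.5% in microglia (median 2809 UMIs) and 65.6% in excitatory nuclei (median 7297 UMIs). The share in newly formed oligodendrocytes lay below that in microglia and is not read as expression. The source of these UMIs was not tested.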

How the results depend on the processing

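The higher share of newly formed oligodendrocytes in Het kept its direction in all 22 alternatives, with p on the same side of 0.05 in 20. It was smallest, at 0.0802 percentage points (exact p = 0.288), after thinning to 2000 UMIs, was 0.120 with Enpp6 at 4 UMIs, and ranged from 0.145 to 0.252 on leaving out 1 animal, with p under 0.05 without WT female 1 and without Het male 3. The share of lineage nuclei reversed with Enpp6 at 2 UMIs (-0.00975 percentage points) and ranged from -0.157 to 4.64 on leaving out 1 animal. The median UMIs per member ranged from -24.8 to 239.6 (Het minus WT), turning without WT female 3. The sex difference kept its direction in 20 alternatives, between -0.366 and -0.0923 percentage points. Genes called between Het and WT were 1 in nuclei of at least 2200 UMIs. This limit was added after the data were seen and left 9 animals. The calls were 1 by DESeq2, 7 with no filter on low counts, and 0 to 1 on leaving out 1 animal. Differences from myelinating oligodendrocytes were 1 with Enpp6 at 2 UMIs, 2 at 4 UMIs, 1 without high Scrublet scores, 9 with no filter, and 0 to 6 on leaving out 1 animal. The OPC interaction rested on 3 animals with 1 WT, so its 0 calls say nothing about stability, and leaving out animals was not run for it. The causes of these changes were not tested. Of the 10 genes named by p, 0 reversed in the alternatives that tested them (15 for Fam91a1, 16 for Myo1d and 21 to 23 for the others). The log2 fold change moved by over 1.5 times with Enpp6 at 2 UMIs, where all 12 animals entered, for Creb5, Myo1d, Cnksr3 and Elf1. It did so with Enpp6 at 4 UMIs for Cldn14 and with a replicate block for Cemip2 and Cnksr3 (0.35). The Cemip2 adjusted p ran from 2.6e-08 to 0.998. With a replicate block the share difference was 0.194 (exact sign flips, p = 0.156), the lineage share 1.95 (exact p = 0.625), the median UMIs 113.9 (exact p = 0.812), and 0 genes were called, with Cemip2 at 0.96 (adjusted p = 0.54). In the gene test Het male 1 and Het female 3 had no WT partner with 10 members, so they do not inform the block estimate. Same-numbered animals shared only a number, and 1 of 4 pairs matched best with its own. Members per animal, from 4 to 46, limit the depth.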
